A study of Mus musculus with 6 samples.

Results

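The genes described are 10 regulators that link neuronal activity to transcription: the calmodulin-binding transcription activators Camta1 and Camta2, the myocyte enhancer factors Mef2a, Mef2c and Mef2d, the transcription factors Creb1 and Srf, and the deacetylases Hdac4, Hdac5 and Sirt1. They were chosen by name, as the rows of the isoform table whose transcript name, without its final number, is one of these symbols. All 10 were found among the 53354 gene symbols of the table, and they account for 123 of its 133944 isoforms, of which 104 had a count in at least 1 mouse. Total RNA was sequenced from the hippocampus of 3-month-old C57BL/6 mice, with 3 controls with Nes-Cre alone, called N-cre, and 3 mice of the genotype Nes-Cre;R26-Rbfox1+/flox, called N-cre;Fox1. Both genotypes carried the Nes-Cre transgene, and the N-cre;Fox1 mice carried in addition 1 copy of an Rbfox1 cDNA in the Gt(ROSA)26Sor locus, read from the CAG promoter once Cre has removed a stop cassette. The nestin promoter limits this to cells in which the Cre acts. With a reporter the paper saw this activity in granule neurons of the dentate gyrus and pyramidal neurons of CA1 and CA3, and describes it as neuronal. Where the Cre acted was not tested in these data. The RNA came from whole hippocampus with all of its cell types. In such bulk RNA, fewer cells of a type and less RNA per cell cannot be told apart.

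Calcium that enters an active neuron acts on several of these proteins through calmodulin, calmodulin-dependent kinases and calcineurin. CREB1, SRF and the MEF2 factors sit on the promoters and enhancers of activity-dependent genes, the class IIa deacetylases HDAC4 and HDAC5 bind MEF2 and hold it silent until phosphorylation sends them out of the nucleus, and SIRT1 is an NAD-dependent deacetylase. Rbfox proteins are splicing factors that bind the RNA letters GCAUG, mostly in introns beside alternative exons, and the MEF2 transcripts are among their known splicing targets in brain and muscle. Each MEF2 gene has a pair of mutually exclusive exons, alpha1 and alpha2, that follow the DNA-binding part of the protein, and a short beta exon within the activation region. The study also used Camta1 RNA as a positive and Sirt1 RNA as a negative control for Rbfox1 binding.

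The expected counts summed to between 40463587 and 62141336 read pairs per mouse. Rbfox1 itself did not separate the genotypes, at 288, 272 and 277 CPM (counts scaled to a common library size) in N-cre and 300, 256 and 288 in N-cre;Fox1 mice, so the labels of the libraries cannot be checked by this sum. The paper reports a modest rise of hippocampal Rbfox1 mRNA and protein in this model, which the summed counts of these libraries do not show. Ntrk2, the gene whose isoforms the study followed, stood at 521, 541 and 533 CPM in N-cre and 585, 589 and 548 in N-cre;Fox1 mice, without overlap. The quasi-likelihood test of edgeR gave a log2 fold change of 0.11 (standard error 0.0428, unadjusted p 0.0270, adjusted p 0.783). This value sums all isoforms, whereas the paper reports a rise of the TrkB.T1 isoform only, so it does not test that report. A pair of libraries stood apart: the 6 choroid plexus markers summed to 2246 CPM in N-cre replicate 3 and 5058 CPM in N-cre;Fox1 replicate 2, against 27 to 37.1 CPM in the other mice. Xist was at 443 and 415 CPM in replicate 1 of each genotype and at most at 0.416 CPM in the others. Neuron markers were abundant in every mouse, with the 8 markers summing to between 8952 and 10012 CPM. The 6 astrocyte markers summed to between 3462 and 3598 CPM in N-cre and between 3697 and 4034 CPM in N-cre;Fox1 mice, without overlap, and their part in the results below was not tested. Most of this sum was Slc1a2, at 2107, 2022 and 1993 against 2276, 2142 and 2221 CPM. Of the 6 markers 4 were higher, and Aldh1l1 and Slc1a3 were lower with overlap, at log2 fold changes of -0.14 and -0.02. Gfap, the highest of the 6 in fold change, was at 458, 445 and 428 against 646, 528 and 561 CPM, and the adjusted p of edgeR was 0.320. DESeq2's Wald test and edgeR without the filter called Gfap and the water channel Aqp4, and edgeR with a term for Xist called Gfap. Gja1 was at 207, 210 and 209 against 224, 218 and 229 CPM. Of 8 hippocampal region markers 3 were higher, C1ql2 among them with overlap, and 5 lower. Of these Wfs1 did not overlap, at 217, 180 and 166 against 158, 159 and 124 CPM. Of 7 thalamus and striatum markers 3 were higher and 4 lower, and Adora2a, at most at 1.91 CPM, was lower without overlap. Their part was not tested either.

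The alternative exons of the MEF2 and CAMTA genes are shown first because the question of splicing turns on them. They were read from the GENCODE transcripts of GRCm38, 5′ to 3′ on the strand of the gene, and capitals mark the bases that are identical and matched to each other in every pairwise alignment of the exons set side by side, so that where the alignment places a gap decides some of them. The 21-base exons of Camta1, at chr4:151076577-151076597, and Camta2, at chr11:70670891-70670911, both on the minus strand, share 16 of 21 bases (76.2%).
Camta1 microexon: CTGACaTGGATaGCctTgAAG
Camta2 microexon: CTGACcTGGATtGCacTtAAG
The beta exons have 24 bases in Mef2a (chr7:67244521-67244544, minus strand) and Mef2c (chr13:83654598-83654621, plus strand) and 21 in Mef2d (chr3:88161781-88161801, plus strand).
Mef2a beta: tCgGAGgaagaggAatTggagtTG
Mef2c beta: tCtGAGgatgtggAtcTgctgtTG
Mef2d beta: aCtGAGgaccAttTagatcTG
The alpha1 exons lie at chr7:67268269-67268400 in Mef2a, chr13:83625265-83625408 in Mef2c and chr3:88158034-88158171 in Mef2d.
Mef2a alpha1: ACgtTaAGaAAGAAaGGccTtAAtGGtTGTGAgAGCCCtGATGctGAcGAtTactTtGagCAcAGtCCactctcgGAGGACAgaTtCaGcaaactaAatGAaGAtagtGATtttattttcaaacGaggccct
Mef2c alpha1: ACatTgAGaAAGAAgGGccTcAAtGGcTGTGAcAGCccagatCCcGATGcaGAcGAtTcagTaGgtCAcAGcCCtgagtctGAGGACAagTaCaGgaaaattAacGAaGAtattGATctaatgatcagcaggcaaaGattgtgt
Mef2d alpha1: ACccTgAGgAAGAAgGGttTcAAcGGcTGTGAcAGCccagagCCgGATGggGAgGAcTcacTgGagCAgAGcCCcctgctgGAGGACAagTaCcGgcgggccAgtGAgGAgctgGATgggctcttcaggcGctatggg
By this rule the alpha1 exons of the 3 genes shared 63 bases and the beta exons 8. All 8 exons shown are coding and a multiple of 3 bases long, so that leaving out any of them alone keeps the reading frame. The annotated isoforms do not always do so, as alpha1 is exchanged for alpha2. Camta1-204 and Camta1-207 lack a 31-base coding exon together with the microexon. Among the tested alternative exons of all genes, the length was a multiple of 3 for 87.9% of the 124 with 21 to 24 bases. It was so for 54.0% of the 385 with 132 to 144 bases. The letters GCATG on the transcript strand were in none of these 8 exons, and in 1.61% and 12.5% of the exons of these lengths in all genes. The flanking introns, where Rbfox proteins mostly bind, were not analysed here.

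All 10 genes were expressed in the hippocampus of every mouse. On the TPM scale, which divides counts by transcript length and brings every mouse to the same sum, Camta2 had the highest level, at 275 ± 14.5 (SD, n = 6 mice), and ranked 526 among the 31087 genes with a level above 0. Mef2d at 156 ± 5.48 TPM and Camta1 at 154 ± 5.28 TPM followed and overlapped each other. Hdac5 stood at 134 ± 5.46, Mef2a at 75.7 ± 1.6, Srf at 59.1 ± 2.77 and Mef2c at 47.0 ± 5.02 TPM. The lowest levels were those of Hdac4 at 21.7 ± 1.36, Creb1 at 12.6 ± 0.903 and Sirt1 at 10.3 ± 0.466 TPM. Apart from Mef2d and Camta1, neighbours in this order did not overlap in any mouse, although Srf and Mef2c came close, with a lowest Srf level of 56.5 and a highest Mef2c level of 56.2 TPM. The levels of the class IIa deacetylases thus differed, with Hdac5 above Hdac4 in each mouse, and among the MEF2 genes the order was Mef2d, Mef2a, Mef2c.

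To ask whether the amount of these transcripts differed with the transgene, isoform counts were summed per gene and compared between genotypes. At the adjusted threshold of 0.05, 0 of the 10 genes passed edgeR's quasi-likelihood test, and 0 of 10 fell under 0.05 without adjustment. DESeq2's Wald test and limma-voom also gave 0 of 10 at either threshold. Over all 18924 genes tested, 0.0264% passed the adjusted threshold and 6.19% had an unadjusted p under 0.05. The 10 log2 fold changes had a median of 0.01, with 6 genes above 0 and 4 below, beside a median of 0 over all genes tested. The adjusted p-values of the 10 genes were 0.813 or higher in edgeR's test.

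**Figure D1:**
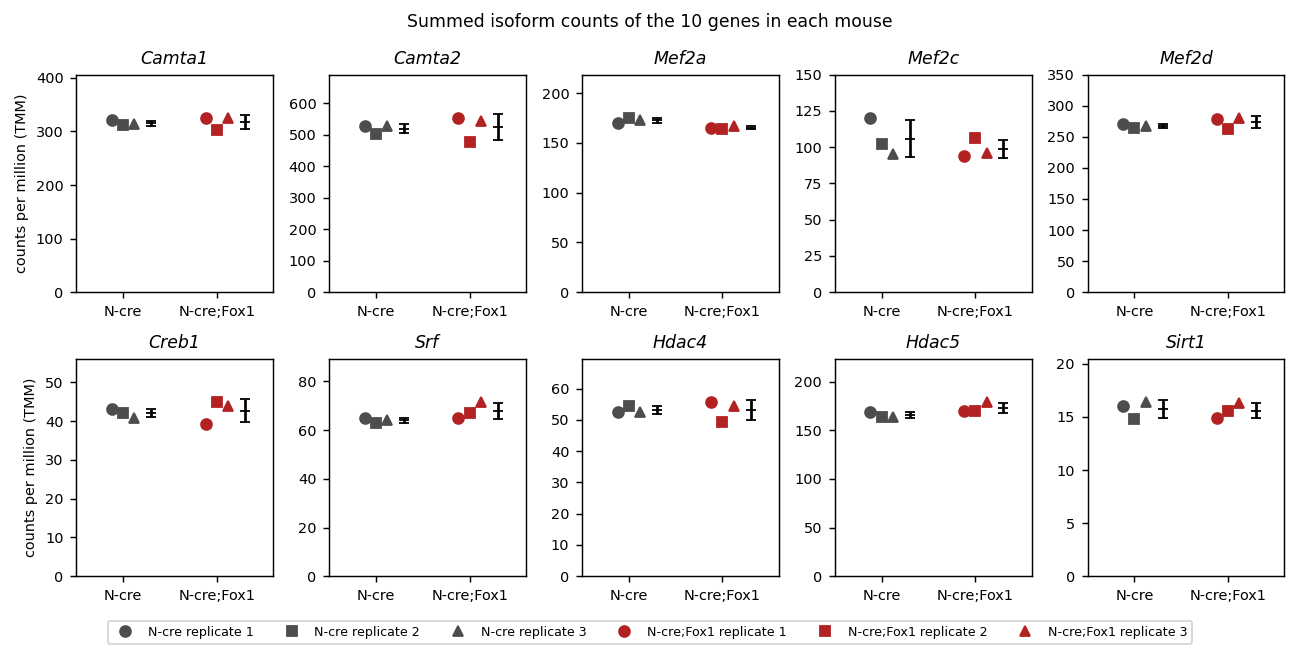
Summed isoform counts of each of the 10 genes in CPM after TMM normalization, for the 3 N-cre mice (grey) and 3 N-cre;Fox1 mice (red), with the mean and SD of each genotype beside the points. The genotypes overlap for 8 of the genes; Mef2a lies lower and Hdac5 higher in each N-cre;Fox1 mouse, at fold changes of 0.957 and 1.05.

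For 2 of the 10 genes the genotypes did not overlap, beside 12.1% of all genes tested. Mef2a, which with Mef2d supplied most of the MEF2 transcripts per length, was at 170, 175 and 173 CPM in N-cre and at 165, 164 and 167 CPM in N-cre;Fox1 mice. It was lower in each N-cre;Fox1 mouse than in any N-cre mouse, at a fold change of 0.957 with a 95% confidence interval from 0.911 to 1.01 and edgeR gave an adjusted p of 0.815. Hdac5 was at 169, 164 and 164 CPM in N-cre and at 170, 170 and 179 CPM in N-cre;Fox1 mice. Its fold change was 1.05, with an interval from 0.990 to 1.10 and edgeR gave an adjusted p of 0.846, and the nearest mice of the genotypes differed by about 1 CPM.

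Among the other MEF2 genes, Mef2d was at 271, 264 and 267 CPM in N-cre and at 279, 262 and 280 CPM in N-cre;Fox1 mice, with overlap. Mef2c, which marks excitatory neurons and also microglia and endothelium in brain, was at 120, 102 and 95.1 CPM in N-cre and at 94.0, 106 and 96.0 CPM in N-cre;Fox1 mice. This was the widest spread within N-cre mice, relative to the level, among the 10 genes, and its interval, from a fold change of 0.798 to 1.09, was the widest too. Its log2 fold change of -0.10 turned to 0.01 without N-cre replicate 1, the mouse with the highest value, and was -0.22 without the pair of mice with high choroid plexus markers, where edgeR's unadjusted p was under 0.05 and the adjusted p was not.

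Camta1 was at 321, 312 and 313 CPM in N-cre and at 325, 302 and 325 CPM in N-cre;Fox1 mice, with a fold change of 1.01 and a 95% interval from 0.945 to 1.07. Camta2 was at 528, 503 and 527 CPM in N-cre and at 553, 476 and 543 CPM in N-cre;Fox1 mice, with an interval from 0.924 to 1.10. In both genes N-cre;Fox1 replicate 2, the mouse with the most choroid plexus RNA, was the lowest of the 6. The other mice ranged from 312 to 325 CPM for Camta1 and from 503 to 553 CPM for Camta2. Without N-cre;Fox1 replicate 2 the log2 fold change of Camta2 was 0.08, and it was 0.09 with N-cre replicate 3 left out as well. In both settings edgeR's unadjusted p was under 0.05 and the adjusted p was not.

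Srf, which binds CArG boxes in the promoters of immediate early and cytoskeletal genes, was at 65.1, 63.1 and 64.1 CPM in N-cre and at 65.1, 66.9 and 71.5 CPM in N-cre;Fox1 mice, a fold change of 1.06 with an interval from 0.994 to 1.12. N-cre;Fox1 replicate 1 was level with the highest N-cre mouse and the other N-cre;Fox1 mice were above it. The unadjusted p of Srf in edgeR's test was under 0.05 without the filter, without N-cre;Fox1 replicate 1 and without N-cre;Fox1 replicate 2, and the adjusted p was not. Creb1 was at 43.2, 42.2 and 40.9 CPM in N-cre and at 39.3, 44.9 and 43.8 CPM in N-cre;Fox1 mice. The deacetylases Hdac4, at 52.6, 54.6 and 52.4 against 55.7, 49.5 and 54.3 CPM, and Sirt1, at 16, 14.8 and 16.4 against 14.9, 15.6 and 16.3 CPM, overlapped as well. The 95% intervals of Creb1, Hdac4 and Sirt1 all lay between fold changes of 0.897 and 1.10.

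Isoform by isoform, 62 of the 123 member isoforms had enough counts to be tested. Of these 0 passed an adjusted p of 0.05 in edgeR's quasi-likelihood test, as did 0% of all 50556 isoforms tested, and 1 of 62 (1.61%) had an unadjusted p under 0.05, beside 4.78% of all isoforms. DESeq2's Wald test and limma-voom also called 0 of the 62, and DESeq2 called 215 isoforms in all. A test of isoform usage within genes (diffSpliceDGE of edgeR) covered 61 member isoforms and called 0, with 2 (3.28%) at an unadjusted p under 0.05; over all 42441 isoforms it called 0.217%, and 2.03% had an unadjusted p under 0.05. In simulated data most calls of this test were false and few 2-fold changes were found, so the shares in each mouse are given as the main description. The share of an isoform in the counts of its gene did not overlap between genotypes for 5 of these 61 isoforms (8.20%), beside 11.2% of all isoforms tested.

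**Figure D2:**
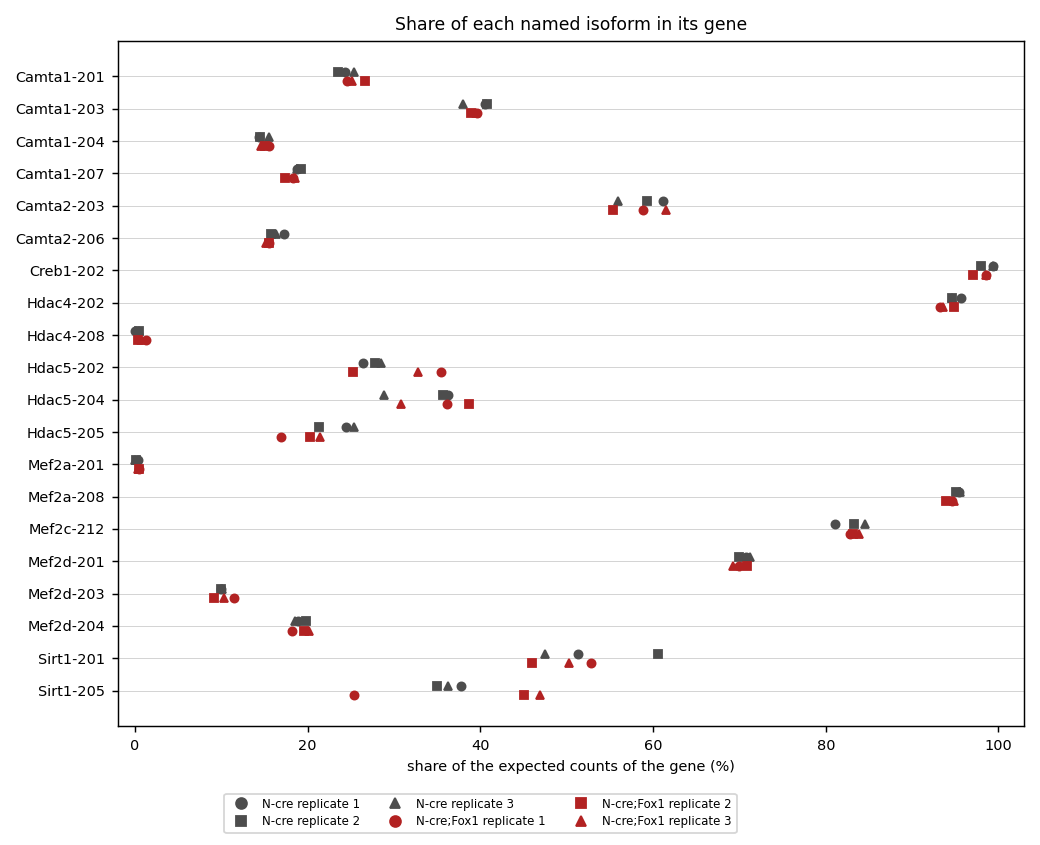
Share of the named isoforms in the expected counts of their gene, in percent, for each N-cre (grey) and N-cre;Fox1 mouse (red); Srf, with 1 isoform, is left out. Creb1, Hdac4, Mef2a and Mef2c each have 1 isoform above 80% in every mouse, and the shares of the Sirt1 and Hdac5 isoforms spread widest among mice of a genotype.

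Mef2a transcripts consisted almost wholly of Mef2a-208, which has the alpha1 and beta exons. Its share was 95.4%, 95.1% and 95.5% in N-cre and 94.6%, 93.9% and 94.9% in N-cre;Fox1 mice. The share was lower in each N-cre;Fox1 mouse, with an exact two-sided permutation p of 0.1, the smallest that 3 against 3 mice allow. Mef2a-208 was also the member isoform with an unadjusted p under 0.05, at a log2 fold change of -0.08, an unadjusted p of 0.0330 and edgeR's adjusted p was 0.990. The study listed this isoform from these same mice, so that its difference here is not independent evidence. Mef2a-203, with alpha2 and without beta, held 4.06%, 4.62% and 4.27% in N-cre and 4.65%, 5.26% and 4.4% in N-cre;Fox1 mice, with overlap. Mef2a-201, also with alpha2, stayed under 0.5% in every mouse and reached an unadjusted p of 0.0235 in the usage test of edgeR.

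Expressed as inclusion, that is the share of transcripts per length that hold an exon among those that hold or skip it, the Mef2a alpha2 exon was in 8.79%, 9.28% and 8.50% of transcripts in N-cre and in 10.2%, 11.3% and 9.4% in N-cre;Fox1 mice. Inclusion of the alpha1 exon was the complement, at 91.1 ± 0.396% (SD, n = 3) and 89.7 ± 0.936% (SD, n = 3). The beta exon was in 90.9%, 90.5% and 91.2% of Mef2a transcripts in N-cre and in 89.6%, 88.3% and 90.4% in N-cre;Fox1 mice. The genotypes did not overlap for any of the 3 exons, each with an exact two-sided permutation p of 0.1. These are not separate results, since the same isoforms, chiefly Mef2a-208 and Mef2a-203, carry all of them, and these isoforms also differ in annotated length, at 5538 and 2664 bases. In limma on the logit of inclusion the adjusted p was 0.951 for each of the 3 exons.

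Mef2c, with 31 annotated isoforms, was mostly Mef2c-212, the isoform with alpha1 and beta, at 81.1%, 83.3% and 84.5% of counts in N-cre and 82.8%, 83.2% and 83.8% in N-cre;Fox1 mice. Its alpha2 exon was in 14.9%, 9.99% and 12.2% of transcripts in N-cre and in 10.2%, 6.53% and 8.39% in N-cre;Fox1 mice. These values overlapped, and of all member exons this one had the lowest unadjusted p, 0.0706, with an adjusted p of 0.937 from limma on the logit of inclusion. The alpha1 exon of Mef2c was in 78.5%, 83.5% and 83.5% of transcripts in N-cre and in 85.0%, 91.3% and 83.9% in N-cre;Fox1 mice, without overlap. The values of alpha2 rest in part on Mef2c-201, whose expected counts were 392, 0 and 125 in N-cre and 0, 26.8 and 193 in N-cre;Fox1 mice, a spread far beyond that of the gene within either genotype. Without division by length the alpha1 values of the genotypes overlapped. In the direction of the means, alpha2 of Mef2a was higher and alpha2 of Mef2c lower in N-cre;Fox1 mice.

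The beta exon of Mef2c was in 88.3%, 90.1% and 89.9% of transcripts in N-cre and in 89.0%, 93.7% and 91.5% in N-cre;Fox1 mice, with overlap. By these estimates Mef2d differed from both paralogues. Its alpha2 exon was nearly unused, at 0.397 ± 0.164% (SD, n = 3) for the controls and 0.42 ± 0.197% (SD, n = 3) with the transgene. Its beta exon was assigned to a minority of transcripts. Mef2d-203 is the only isoform compared that holds beta, so this estimate rests on how RSEM divided reads between it and the isoforms without beta. Beta inclusion was 23.1%, 22.8% and 23.3% in N-cre and 26%, 21.2% and 23.5% in N-cre;Fox1 mice, so that N-cre;Fox1 mice lay on both sides of all N-cre mice. This value depends on the division by length, because Mef2d-203, the isoform with beta, is annotated at 1791 bases and the main isoform Mef2d-201 at 5401: on undivided counts the beta exon was in 10 ± 0.0782% (SD, n = 3) of controls and 10.3 ± 1.2% (SD, n = 3) of transgenic transcripts. The main Mef2d isoforms without beta, Mef2d-201 and Mef2d-204, held 70.8%, 70.0% and 71.2% and 18.9%, 19.8% and 18.5% of counts in N-cre mice. In N-cre;Fox1 mice they held 69.9%, 70.9% and 69.2% and 18.2%, 19.6% and 20.2%, with overlap for both.

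**Figure D3:**
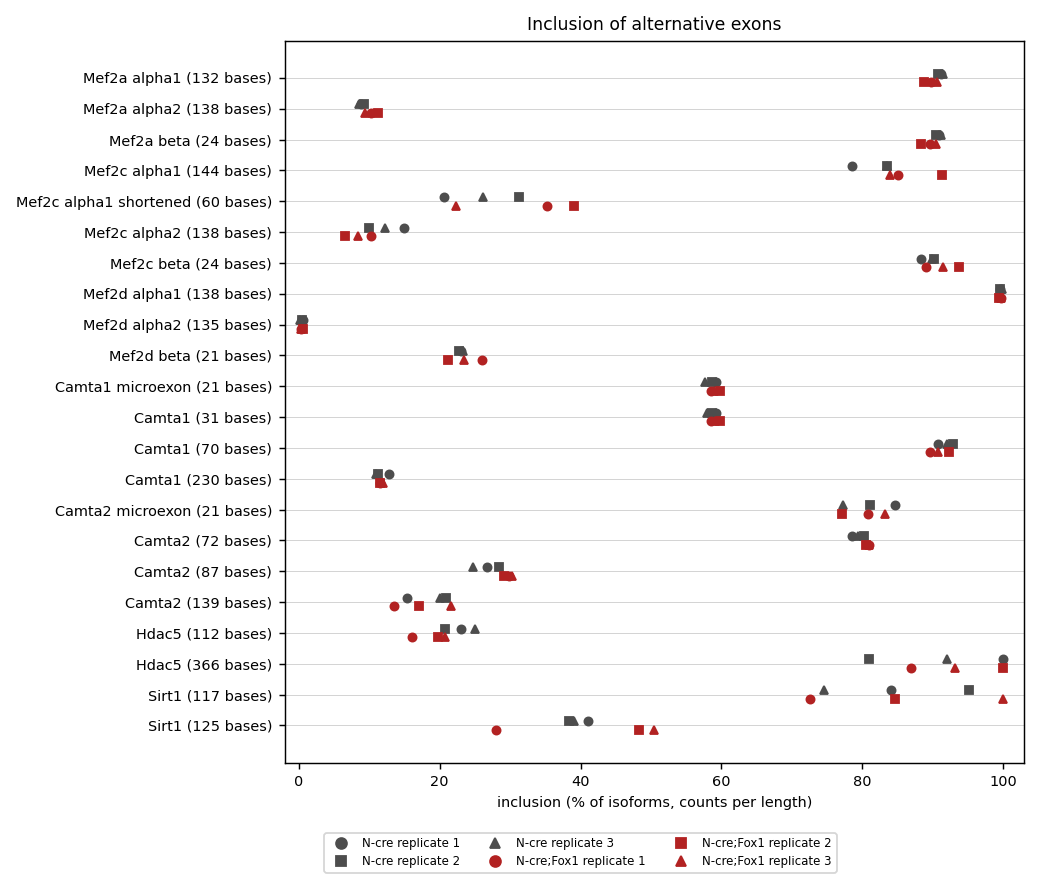
Inclusion of the alternative exons of the MEF2, CAMTA, HDAC and SIRT genes in each mouse, in percent of transcripts after division of expected counts by length, for N-cre (grey) and N-cre;Fox1 mice (red). By these estimates Mef2a and Mef2c include beta in most transcripts and Mef2d in about 21% to 26%. The Mef2d value rests on Mef2d-203, the only compared isoform with beta. Alpha2 is the minor exon in all 3 genes, and most exons overlap between the genotypes.

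Of the 20 member exons tested, 7 (35%) did not overlap between genotypes, beside 11.4% of the 7421 exons tested in all genes, and 3 of the 7 are the Mef2a exons that rest on the same isoforms. None of the 20 passed an adjusted p of 0.05 in limma on the logit of inclusion, and 0 had an unadjusted p under 0.05, beside 0.0404% and 5.34% of all exons. In simulated data the same fit recovered 76% of exons whose odds of inclusion were changed 4-fold. Those exons were drawn from ones of intermediate inclusion, which leaves out exons such as those of Mef2a, and smaller changes were not simulated. The 76% thus does not say how often changes in the 20 member exons would be found.

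Camta1 was divided among 4 main isoforms. Camta1-203, which has the 21-base microexon, held 40.5%, 40.8% and 38.0% of counts in N-cre and 39.6%, 38.9% and 39.5% in N-cre;Fox1 mice. Camta1-201, with the same exon, held 24.3%, 23.5% and 25.4% against 24.5%, 26.6% and 25.1%. Both isoforms overlapped between the genotypes. The isoforms without the microexon were Camta1-204, at 14.3%, 14.5% and 15.5% against 15.5%, 15.1% and 14.6%, and Camta1-207, at 18.8%, 19.2% and 18.8% against 18.3%, 17.4% and 18.5%. The share of Camta1-207 was lower in each N-cre;Fox1 mouse, at an exact two-sided permutation p of 0.1. Inclusion of the microexon was 59.2%, 58.7% and 57.6% in N-cre and 58.5%, 59.8% and 58.9% in N-cre;Fox1 mice. It thus stayed between 57.6% and 59.8% in all 6 mice, and a 31-base exon near it, held by nearly the same isoforms, had inclusion from 57.9% to 59.8%.

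Camta2 included its own copy of the microexon more often than Camta1, in 84.6%, 81.1% and 77.3% of transcripts in N-cre and 80.8%, 77.1% and 83.2% in N-cre;Fox1 mice, with overlap. The lowest Camta2 value lay above the highest Camta1 value. Its main isoform, Camta2-203, held 61.1%, 59.3% and 55.9% of counts in N-cre and 58.8%, 55.4% and 61.5% in N-cre;Fox1 mice. A second region of Camta2, at chr11:70683279-70683417 on the minus strand, has an exon of 72, 87 or 139 bases, with a common 3′ end and different 5′ ends, that Camta2-206 skips. The 72-base form was included over skipping in 78.5%, 80.3% and 79.4% in N-cre and in 80.9%, 80.5% and 80.9% in N-cre;Fox1 mice. For the 87-base form the values were 26.7%, 28.4% and 24.7% against 29.8%, 29.2% and 30.3%. Both were higher in each N-cre;Fox1 mouse, at an exact two-sided permutation p of 0.1 each and adjusted p-values of 0.951 from limma, while the 139-base form overlapped. The 3 forms share the skipping isoform Camta2-206, at 17.3%, 15.8% and 16.3% of counts in N-cre and 15.5%, 15.5% and 15.2% in N-cre;Fox1 mice, so that their inclusion values are not independent.

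The deacetylase Hdac5 was shared among several isoforms. Hdac5-202 held 26.4%, 27.8% and 28.5% of counts in N-cre and 35.4%, 25.2% and 32.8% in N-cre;Fox1 mice, and Hdac5-204 held 36.3%, 35.7% and 28.8% against 36.1%, 38.7% and 30.8%. Hdac5-205 carries an extra exon of 112 bases, at chr11:102213925-102214036, and is annotated as a target of nonsense-mediated decay, the pathway that degrades RNA with an early stop codon. That exon was in 23.0%, 20.8% and 25% of transcripts in N-cre and in 16.1%, 19.7% and 20.7% in N-cre;Fox1 mice. Inclusion was lower in each N-cre;Fox1 mouse, with an exact two-sided permutation p of 0.1 and an adjusted p of 0.940 from limma, the nearest mice were 20.8% and 20.7%, and the genotypes overlapped on undivided counts.

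Hdac4, Creb1 and Srf each had 1 isoform with most of the counts. Hdac4-202 held 93.2% to 95.7% of Hdac4 counts over the 6 mice. Divided by length its share was 68.8% in N-cre and 65.1% in N-cre;Fox1 mice, as the annotated Hdac4-206, with 938 bases against 8100, then held 23.8% and 23.1% and Hdac4-205 held 4.80% and 7.25%. Creb1-202 held 97.0% to 99.4% of Creb1 counts, and Srf has 1 annotated isoform. The noncoding Hdac4-208 had an unadjusted p of 0.0468 in the usage test of edgeR, at shares of 0%, 0.409% and 0.402% in N-cre and 1.23%, 0.387% and 0.735% in N-cre;Fox1 mice, with overlap. Sirt1, the least abundant of the 10 genes per length, was mostly divided between the coding Sirt1-201, at 51.3%, 60.6% and 47.5% against 52.8%, 46.0% and 50.3%, and Sirt1-205, annotated for nonsense-mediated decay, at 37.7%, 35% and 36.2% against 25.4%, 45.1% and 46.9%. The coding Sirt1-202 held 9.37%, 3.01% and 15.5% against 19.4%, 8.02% and 0%. All 3 overlapped, and for Sirt1-205 the N-cre;Fox1 mice spread to both sides of the N-cre mice.

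The partners of the 10 regulators were followed in lists of related genes. Of 11 other histone deacetylases and their corepressors, 5 were higher and 6 lower, with a median log2 fold change of -0.02, and 0 fell under an unadjusted p of 0.05 with edgeR. The 6 other sirtuins all had a log2 fold change below 0, with a median of -0.08, and 0 had an unadjusted p under 0.05. For 4 of 12 genes of the CREB family and its coactivators the genotypes did not overlap, beside 12.1% of all genes tested. Of the 12, 8 were higher, with a median of 0.03, and 3 had an unadjusted p under 0.05, beside 6.19% of all genes. These were the stress-response factor Atf4, at 87.0, 86.1 and 82.7 against 89.1, 92.1 and 96.5 CPM, the histone acetyltransferase Ep300, at 68.5, 69.6 and 71.1 against 73.5, 80.8 and 74.2 CPM, and the cAMP-responsive factor Crem, at 10.8, 10.1 and 9.91 against 10.6, 12.5 and 12.5 CPM. Atf4 and Ep300 were higher in each N-cre;Fox1 mouse and Crem overlapped, with adjusted p-values of 0.756, 0.726 and 0.799 from edgeR's test. No gene of any list passed the adjusted threshold in this test on all mice.

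Of the SRF partners, 5 of 6 were tested and 4 were higher, with a median of 0.02 and 0 at an unadjusted p under 0.05. Of 7 MEF2 family members and cofactors, 5 were tested, while Mef2b and Myocd had too few counts. Klf4, a zinc-finger factor, was at 4.89, 4.2 and 5.99 against 6.02, 7.50 and 6.92 CPM, with an adjusted p of 0.718 from edgeR's test. Among 37 kinases, phosphatases and calmodulin genes that act on these regulators, 19 were higher and 18 lower, with a median of 0.0026. For 5 of the 37 the genotypes did not overlap, beside 12.1% of all genes tested. An unadjusted p under 0.05 was reached by 4 of the 37, beside 6.19% of all genes. Sik2, a kinase that holds the CREB coactivators in the cytoplasm, was at 27.8, 24.7 and 26.3 CPM in N-cre and 30.2, 30.4 and 30.3 CPM in N-cre;Fox1 mice. Mapk7 (ERK5), which phosphorylates MEF2, was at 33.9, 35.3 and 34.4 against 37.2, 38.6 and 39.7 CPM. Camk1, at 40.1, 43.7 and 42.8 against 37.9, 38.6 and 40.0 CPM, and Rps6ka4 (MSK2), at 43.5, 42.2 and 45.1 against 41.2, 38.7 and 41.5 CPM, were lower in each N-cre;Fox1 mouse. The adjusted p-values of these 4 genes lay between 0.608 and 0.799 in edgeR's test. With a term for Xist, edgeR called 1 gene of this list, the salt-inducible kinase Sik1, which is named for that reason after its values were seen. It was at 14.2, 17.3 and 18.8 CPM in N-cre and 18, 27.8 and 26.1 CPM in N-cre;Fox1 mice, with overlap, and at an adjusted p of 0.799 without the term in edgeR's test.

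**Figure D4:**
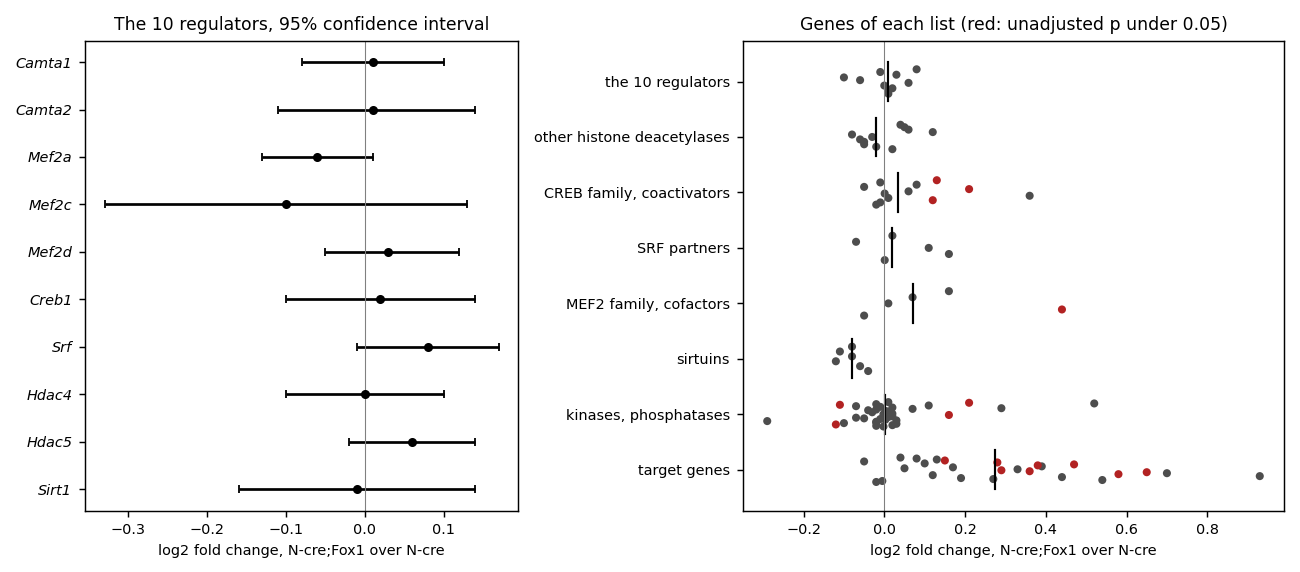
Log2 fold change of N-cre;Fox1 over N-cre mice for the 10 genes with 95% confidence intervals (left) and for the genes of each related list (right), where a vertical bar marks the median of the list and red points fall under an unadjusted p of 0.05 with edgeR. Each of the 10 intervals includes 0. The list of target genes, chosen with earlier results of these data known, has the highest median, 0.28.

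The known targets of CREB, SRF and MEF2 lay higher in N-cre;Fox1 mice by direction, although no gene of this list passed the adjusted threshold in edgeR's test. Of 26 target genes 23 had a log2 fold change above 0, with a median of 0.28 beside 0 over all genes tested, and 8 had an unadjusted p under 0.05, beside 6.19% of all genes. For 6 of the 26 the genotypes did not overlap, beside 12.1% of all genes. The list was chosen with earlier results of these data known, and several of its genes rose in the same mice. These counts are therefore not independent evidence. Egr4, an immediate early zinc-finger factor, was at 20.7, 18.4 and 17.7 CPM in N-cre and 22.4, 30.3 and 31.9 CPM in N-cre;Fox1 mice, with an adjusted p of 0.693. Fosb, an AP-1 subunit, was at 16.9, 12.7 and 13.5 against 17.6, 24.7 and 25.3 CPM. The nuclear receptors Nr4a2, at 62.6, 54.7 and 55.3 against 64.5, 78.1 and 82.9 CPM, and Nr4a3, at 101, 78.8 and 80.2 against 109, 116 and 135 CPM, were higher in each N-cre;Fox1 mouse as well. So were Per1, a clock gene, at 133, 101 and 110 against 138, 136 and 145 CPM, and Homer1, a postsynaptic scaffold, at 105, 89.6 and 84.0 against 108, 112 and 122 CPM. The remaining 2 genes, the secretogranin Scg2 and the stress-inducible Gadd45b, overlapped, at log2 fold changes of 0.15 and 0.36.

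This difference was uneven among the mice. The mean log2 level of the 26 targets, relative to the N-cre mean, was 0.06, -0.06 and -0.0042 in N-cre replicates 1 to 3 and 0.07, 0.35 and 0.40 in N-cre;Fox1 replicates 1 to 3. N-cre;Fox1 replicate 1 thus stood beside N-cre replicate 1, the other mouse with a high Xist count, and the mean was higher in the other 2 N-cre;Fox1 mice. Egr2, a zinc-finger factor, was at 4.43, 3.93 and 4.51 CPM in N-cre and 4.18, 10 and 10.3 CPM in N-cre;Fox1 mice. Fos, an AP-1 subunit, was at 22.2, 24 and 23.4 CPM in N-cre and 23.6, 42.6 and 46.8 CPM in N-cre;Fox1 mice. Without N-cre;Fox1 replicate 1 edgeR's test called 5 of the 26 targets at an adjusted p under 0.05 (Egr2, Egr4, Fos, Junb and Nr4a2), and without N-cre;Fox1 replicate 2 it called 0, with 2 at an unadjusted p under 0.05. DESeq2's Wald test on all mice called 4 (Egr4, Fosb, Homer1 and Nr4a2). With a term for Xist edgeR called 0, with 13 at an unadjusted p under 0.05, and without both mice with high choroid plexus markers it called 0, with 2. The part of the astrocyte markers in these values was not tested. For the 10 regulators themselves the same means were 0.03, -0.02 and -0.02 in N-cre and -0.01, -0.02 and 0.04 in N-cre;Fox1 mice.

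**Figure D5:**
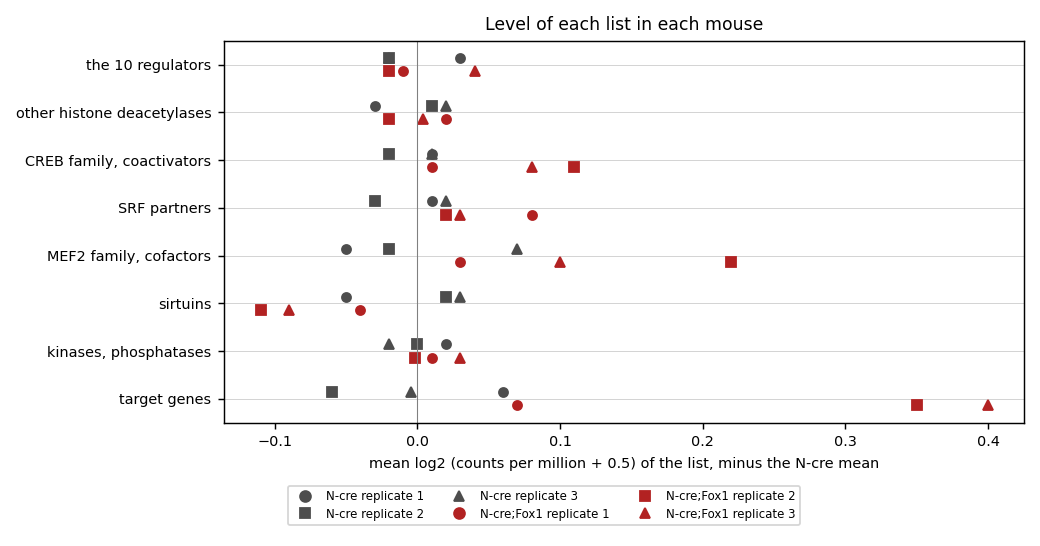
Mean log2 level of each list in each mouse, relative to the mean of the N-cre mice, on the scale of log2 (CPM + 0.5). The target genes stand at 0.35 and 0.40 in N-cre;Fox1 replicates 2 and 3 and at 0.07 in replicate 1, while the 10 regulators stay between -0.02 and 0.04 in all mice.

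The promoters of the regulators were searched for the binding letters of the factors among them, in the 250 bases before each RefSeq start on GRCm38.p6. The full CREB site TGACGTCA was in none of the 10 promoters, beside 1.77% of the promoters of 27025 genes, and in 3 of the 21 target genes with a promoter entry (Dusp1, Pcsk1 and Scg2). A CArG box, the site of SRF, was in 1 of the 10, that of Srf itself, beside 1.62% of all promoters, and in 3 of the 21 targets (Actg1, Egr2 and Vcl). The Srf promoter, at chr17:46556163-46556412 on the minus strand, is shown because it holds a pair of CArG boxes, marked in capitals.
Srf promoter: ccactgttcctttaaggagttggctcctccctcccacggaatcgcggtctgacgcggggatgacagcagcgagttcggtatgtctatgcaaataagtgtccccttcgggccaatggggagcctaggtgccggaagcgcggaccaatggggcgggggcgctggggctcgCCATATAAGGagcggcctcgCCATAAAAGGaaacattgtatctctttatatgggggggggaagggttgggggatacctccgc
A match of letters is a description of the sequence and not of binding in these mice.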

How the data were processed

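Libraries were made from hippocampal total RNA, 1 for each of 6 mice (3 per genotype). Per the labels and methods, adapters were removed with cutadapt 1.18, alignment to mm10 used STAR 2.5.2b, and the authors deposited RSEM 1.3.0 expected counts per isoform, which are not normalized. Between 81.9% and 82.7% of the values above 0 are not whole, because RSEM divides a read pair between isoforms it fits. Lengths and exons came from GENCODE M21, in which 130921 of 133944 isoforms have the same identifier and version.

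Expected counts were rounded, summed by symbol for genes, filtered with filterByExpr (minimum count 10, minimum total 15) and compared in R 4.3.3 with the quasi-likelihood test of edgeR 4.0.16 (TMM, robust), with Benjamini-Hochberg adjustment over all features and a threshold of 0.05. CPM use TMM library sizes. Usage within genes was tested with diffSpliceDGE. Exon inclusion was the summed length-divided count of isoforms with the exon over that of isoforms with or without it, and was tested with limma 3.58.1 on log2 odds with a prior of 0.5, for exons with 20 read pairs on average and a mean inclusion of 5% to 95%. Shares and inclusion of the 10 genes were compared with exact two-sided permutation tests. Named were all 10 genes, isoforms with a mean share of at least 10% in a genotype, an unadjusted p under 0.05 or a listing by the study from these mice, exons with at least 100 read pairs, and list genes with an unadjusted p under 0.05. Other isoforms and genes were named after their values were seen. The members and lists were chosen with earlier results of these data known. Each library came from a different animal per the labels.

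Alternatives were DESeq2 1.42.0 (size factors and Wald test), upper quartile scaling, limma-voom, other filters and priors, unrounded counts, undivided or divided counts, a term for mice with Xist counts above 1000, a replicate block and each mouse left out. Limma on the logit of isoform shares, and leaving out both mice with more than 1000 CPM of choroid plexus markers, were added after seeing the data. In simulated data with 200 changed features, edgeR recovered 93% of 2-fold changed genes (13.5% of 215 calls false) and 38.5% of isoforms (15.4% of 91 false), diffSpliceDGE 6.5% (78.1% of 96 false), and limma on inclusion 76% of 4-fold changed odds (6.75% of 163 false). The changed exons were drawn only from those of intermediate inclusion. Depth was 40463587 to 62141336 read pairs per mouse, and the spread between 3 mice limits the precision. Same-numbered mice deviated together for replicate 1 but not for replicates 2 and 3 (correlations of 0.496, -0.210 and -0.358 over genes). The highest correlation, 0.607, was between N-cre replicate 3 and N-cre;Fox1 replicate 2.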

Additional observations from a re-analysis of the deposited data

How the results depend on the processing

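With 3 mice per genotype the spread between mice limits these results, low counts limit the minor isoforms, and how RSEM divided reads between isoforms limits the results on splicing. Other depths were not tried. In edgeR's quasi-likelihood test 5 genes and 0 isoforms were called in all; 45 genes and 10 isoforms were called without a filter beyond 1 count, 50 genes and 215 isoforms by DESeq2's Wald test, 11 genes with a term for Xist, 6 isoforms with at least 10 counts in every mouse and 1 isoform on unrounded counts. The usage test called 92 isoforms in all, and 199 without the filter, 45 with at least 10 counts in every mouse, 36 with limma on the logit of shares and 271 without both mice with high choroid plexus markers, the last pair of settings chosen after seeing the data. Exon inclusion gave 3 calls, 12 with a prior of 0.05, 0 on counts not divided by length and 0 without both of these mice. The cause of these differences was not tested. None of these calls was one of the 10 genes, their isoforms or their exons. With each mouse left out in turn the calls ranged from 2 to 29 for genes, from 170 to 199 for usage and from 0 to 9 for exons, and were 0 for isoforms; the 29 genes were called without N-cre;Fox1 replicate 1. The single member call in any setting was Camta1-202, a minor isoform with at most 46.9 counts in a mouse, in the usage test without N-cre;Fox1 replicate 3.

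The replicate number did not pair the mice throughout, as same-numbered mice had correlations of 0.496, -0.210 and -0.358 over genes. With the number as a replicate block, edgeR called 5 genes and 0 isoforms, the usage test 64 isoforms and limma 0 exons, and it changed no call on a member.

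Of the 19 member isoforms with a mean share of at least 10% in a genotype, 3 did not overlap between genotypes, beside 11.2% of all isoforms tested; with each mouse left out this number was 3 to 7, and 10 without both mice with high choroid plexus markers, as fewer mice overlap less often by construction. Of the 20 exons 7 did not overlap on length-divided and 5 on undivided counts, and 7 to 10 with each mouse left out. The log2 fold changes of Mef2a, Mef2d, Srf and Hdac5 kept their sign in every setting. Those of the other 6 genes, none of them called, changed sign in some. Camta1 was -0.0010 with upper quartile scaling. Hdac4, at -0.0001, was 0.0013 with DESeq2's size factors or its Wald test, 0.0045 without the filter, 0.0029 with at least 10 counts in every mouse and 0.04 without both mice with high choroid plexus markers. Without these mice Creb1 was -0.04 and Sirt1 0.02. With each mouse left out in turn, Camta1 ranged from -0.01 to 0.05, Camta2 from -0.02 to 0.08, Mef2c from -0.16 to 0.01, Creb1 from -0.02 to 0.08, Hdac4 from -0.03 to 0.05 and Sirt1 from -0.05 to 0.03.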
